A study of Mus musculus with 8 samples.

Results

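The S100 genes encode small proteins that bind calcium through EF-hand loops. The 10 members described here, S100a1, S100a3, S100a4, S100a6, S100a8, S100a10, S100a11, S100a13, S100a14 and S100a16, were taken by symbol from the S100 cluster of mouse chromosome 3, out of 47434 genes in the table. They were selected on their counts in these same knockout and wild-type libraries, so their differences between the groups are given below as a description and not as a test of the members. RNA was measured in Hepa 1-6, a mouse hepatoma cell line, by poly-A RNA sequencing. The wild type (WT) and the G9a knockout had 4 libraries each, G9a being the histone H3 lysine 9 methyltransferase encoded by Ehmt2, and the labels name no treatment. The labels do not say how the knockout was made, whether it is 1 clone, or whether libraries came from separate cultures, so errors and p-values cover the spread between these libraries, which may be technical.

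S100 proteins work mostly as dimers. On binding calcium they expose a surface that holds a target, such as an annexin or a myosin heavy chain, and some are also released from cells and act on receptors such as RAGE (Ager) and TLR4. In the liver, S100A4, S100A6, S100A10 and S100A11 are known from bile duct cells, stromal cells and tumors, and S100A8 with its partner S100A9 from neutrophils and monocytes. Most of the genes lie side by side in 1 cluster, within and beside the epidermal differentiation complex, a run of genes for the outer layers of the skin.

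Library totals were between 58256100 and 75025236 counts. Levels are given as CPM, counts relative to the library total after TMM scaling, a factor per library that evens out differences in composition. Ehmt2 was at 116.7 to 119.8 CPM in the knockout and 297.6 to 345.4 CPM in the wild type (log2 fold change -1.41 ± 0.05 SE, n = 4 per group; edgeR, adjusted p = 3.82e-10). Hepatocyte markers were sparse: of 19 measured, 12 including albumin had 0 counts in all libraries and 1 could be tested.

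The S100 genes of chromosome 3 span 3053.6 kb (90511034 to 93564643, GRCm38) and fall into separate groups. S100a1, S100a13, S100a14, S100a16, S100a3, S100a4, S100a6 and S100a8 lie within 184.7 kb, counted to the end of S100a9, which is no member. From the end of S100a9, S100a11 and S100a10 follow after a gap of 2824.8 kb. The upstream sequences of S100a4, S100a6 and S100a11, abundant members that differed in the size of their change, are shown to set their starts side by side. They come from RefSeq (GRCm38.p6), each ends before the first annotated exon, and 8 of the 10 members had an entry. S100a14 and the abundant member S100a10 had none. S100a4 is from chr3:90603520-90603769, S100a6 from chr3:90612644-90612881 and S100a11 from chr3:93520246-93520487, all on the plus strand and 5′ to 3′. Capitals mark TATAAA, the TATA box; GGGCGG, a core bound by SP1; CCAAT, a motif bound by NF-Y; CACGTG, known as an E-box; the AP-1 motif TGANTCA; or the sequence TGACNNNGC, the core of the antioxidant response element. Both strands were searched.
S100a4: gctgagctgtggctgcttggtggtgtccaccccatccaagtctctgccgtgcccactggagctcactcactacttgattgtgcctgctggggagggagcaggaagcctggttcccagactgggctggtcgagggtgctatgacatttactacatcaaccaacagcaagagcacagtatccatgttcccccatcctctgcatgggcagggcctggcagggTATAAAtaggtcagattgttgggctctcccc
S100a6: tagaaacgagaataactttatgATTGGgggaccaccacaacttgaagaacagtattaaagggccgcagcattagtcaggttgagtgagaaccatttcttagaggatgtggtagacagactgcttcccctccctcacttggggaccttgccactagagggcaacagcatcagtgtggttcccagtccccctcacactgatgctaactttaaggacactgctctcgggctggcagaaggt
S100a11: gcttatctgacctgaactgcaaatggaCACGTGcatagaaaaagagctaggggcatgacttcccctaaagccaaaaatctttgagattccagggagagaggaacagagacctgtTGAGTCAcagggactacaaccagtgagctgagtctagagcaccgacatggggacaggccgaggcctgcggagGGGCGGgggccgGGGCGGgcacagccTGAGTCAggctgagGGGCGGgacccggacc

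The 3 sequences differ in these motifs. S100a4 held 1 TATAAA, from 31 to 26 bases before its RefSeq start, and none of the others. S100a6 held 1 CCAAT, on the minus strand (ATTGG), and no TATAAA. S100a11 held 3 GGGCGG, 2 TGANTCA and 1 CACGTG. Of 32851 promoter windows of the same 250 bases, 12.4% held TATAAA, 32.7% GGGCGG, 33.8% CCAAT, 6.02% CACGTG, 6.75% TGANTCA and 10.2% TGACNNNGC. S100a4 had 2 CpG sites in the window, S100a6 3 and S100a11 11, against a median of 6 over all windows. The windows of S100a16, S100a3, S100a1 and S100a13, not shown, had 1, 5, 8 and 13 CpG sites. Those of S100a1 and S100a13 overlap annotated exons. The window of S100a8, a member with 0 counts in all libraries, is not shown. It also held TATAAA, from 30 to 25 bases before its RefSeq start, and 2 CpG sites. That RefSeq start lies 93 bases inside the annotated transcript S100a8-201, and the window overlaps an annotated exon. This TATAAA thus lies after the annotated start of S100a8, whereas that of S100a4 lies before the annotated start of S100a4. A match is a string of letters and does not show that a factor binds there.

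S100a1 and S100a13 start back to back, S100a1 on the minus and S100a13 on the plus strand. Between their annotated first bases lie 42 bases (chr3:90514393-90514434, printed on the plus strand), shown because the pair shares this stretch and both genes were weakly expressed. The RefSeq start of S100a1 lies 62 bases inside its annotated transcript, and that of S100a13 is at its annotated start. Capitals mark the CpG site.
S100a1-S100a13 gap: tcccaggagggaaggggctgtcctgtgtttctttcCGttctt

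Compared per length, as TPM (counts per base of transcript, scaled to the same sum in each library), the members covered a wide range. In the wild type the order was S100a6 at 1744 ± 139.3 TPM (SD, n = 4), S100a11 at 1454 ± 99.3, S100a10 at 1165 ± 32.9 and S100a4 at 589.0 ± 106.2 TPM. S100a1 followed at 37.9 ± 2.31, S100a13 at 23.9 ± 2.38 and S100a3 at 14.7 ± 2.85 TPM, and S100a16 at 0.61 ± 0.11 TPM. The ranges of neighbors in this order did not overlap, down to S100a16. In the knockout S100a4 stood first at 2475 ± 146.1 TPM, but its range overlapped that of S100a6 (2355 ± 80.5), which in turn overlapped that of S100a11 (2231 ± 19.6). S100a10 came after them at 1436 ± 40.6 TPM, without overlap. Among all genes, S100a4 went from rank 240 by mean TPM in the wild type to rank 45 in the knockout.

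**Figure D1:**
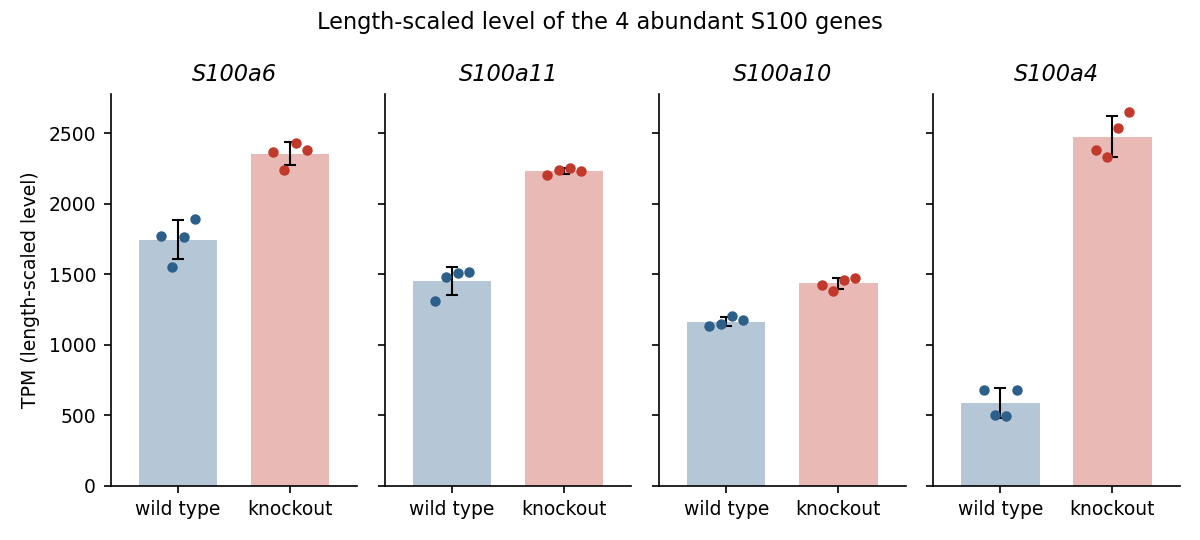
TPM (length-scaled level, linear axis from 0) of S100a6, S100a11, S100a10 and S100a4 in wild-type (blue) and G9a knockout (red) libraries; bars are means, error bars 1 SD (n = 4) and points single libraries. S100a4 is the lowest of the 4 genes in the wild type (589.0 TPM) and has the highest mean in the knockout (2475 TPM).

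S100a4 differed most among the members. It encodes a protein known for binding the heavy chain of non-muscle myosin IIA, for promoting cell movement, and as a marker of fibroblasts and metastatic tumor cells. Its levels were 580.4, 543.9, 636.9 and 655.4 CPM in the knockout libraries and 171.8, 126.6, 125.9 and 175.6 CPM in the wild-type libraries. All knockout libraries were above all wild-type libraries, and wild-type replicates 2 and 3 were lower than 1 and 4. The fold change was 4.03 (log2 fold change 2.01 ± 0.11 SE), the second highest among 2554 genes with at least 100 CPM in either group. Among all 15840 genes tested, at any level, its log2 fold change had rank 551 from the top. These values were known when the gene was chosen and are given as a description.

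Wild-type S100a4 was also less repeatable than most genes of its level. The SD of its 4 wild-type values was 18.3% of their mean (the coefficient of variation), against a median of 4.82% over 2129 genes with at least 100 CPM in both groups, 99.1% of which varied less. Gm42674, an annotated gene on the same strand (chromosome 3, 90601904 to 90605885) that overlaps both S100a3 and S100a4, was at 1.18, 7.48, 14.4 and 0.63 CPM in wild-type replicates 1 to 4. Its highest levels were thus in the wild-type libraries with the lowest S100a4. In the knockout it had 28, 0, 17 and 19 counts, and it fell (log2 fold change -4.68 ± 0.94; edgeR, adjusted p = 0.00105; adjusted p = 0.0862 with limma-voom). The genes share sequence, so how the counts divide between them is uncertain. With the counts of Gm42674 added to S100a4, an alternative chosen after seeing the data, the sum was 173.0, 134.1, 140.4 and 176.2 CPM in the wild type, its coefficient of variation was 13.9%, and the log2 fold change was 1.96.

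S100a6, known as calcyclin and linked to proliferating cells and to the ubiquitin ligase adaptor CacyBP, had the highest TPM of the members in the wild type. It was at 800.1, 736.6, 852.9 and 834.0 CPM in the knockout and at 634.0, 540.8, 620.3 and 665.5 CPM in the wild type. The groups did not overlap, and the difference was smaller than that of S100a4 (log2 fold change 0.39 ± 0.06). S100a4 and S100a6 start 9.1 kb apart on the same strand. The ratio of S100a4 to S100a6, in TPM, was between 1.01 and 1.11 in the knockout libraries and between 0.28 and 0.39 in the wild-type libraries.

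S100a11 and S100a10, the pair at the far end of the cluster, encode partners of annexins. S100A11 binds annexin A1 and acts in membrane repair. S100a11 was at 551.7, 538.8, 580.2 and 566.6 CPM in the knockout and at 340.5, 388.7, 401.3 and 402.3 CPM in the wild type, without overlap (log2 fold change 0.55 ± 0.05). S100A10, or p11, does not bind calcium and forms a complex with annexin A2 that holds plasminogen and its activator on the cell surface. S100a10 was at 477.5, 444.4, 503.8 and 498.4 CPM in the knockout and at 393.9, 401.3, 425.7 and 416.6 CPM in the wild type, without overlap (log2 fold change 0.23 ± 0.05). The 2 genes are 28.8 kb apart, and their ratio in TPM, S100a11 over S100a10, was between 1.51 and 1.62 in the knockout and between 1.16 and 1.29 in the wild type.

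S100a13, S100a1 and S100a3 were expressed weakly. S100A13 takes part in the release of FGF1 and IL-1 alpha from cells. S100a13 was at 11.9, 10.3, 13.01 and 11.6 CPM in the knockout and at 9.45, 7.52, 9.16 and 9.19 CPM in the wild type, without overlap (log2 fold change 0.41 ± 0.10). S100A1 is best known from heart muscle, where it acts on the calcium pump SERCA2 (Atp2a2). S100a1 was at 12.8, 12.1, 17.2 and 14.9 CPM in the knockout and at 11.6, 12.7, 13.3 and 13.3 CPM in the wild type. These ranges overlapped, and the log2 fold change of 0.16 ± 0.11 was 0.06 without knockout replicate 3, the highest library. By their annotated starts, 42 bases lie between S100a1 and S100a13.

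S100a3, known from the hair cuticle, was at 6.34, 5.67, 6.59 and 8.59 CPM in the knockout and at 6.61, 4.53, 6.19 and 7.35 CPM in the wild type. The groups overlapped, and the log2 fold change of 0.14 ± 0.16 was 0.01 without knockout replicate 4 and 0.02 without wild-type replicate 2. With the counts of the overlapping gene Gm42674 added to S100a3, an alternative also chosen after seeing the data, it was -0.78. S100a3 ends 1068 bases before S100a4 begins.

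S100a16, S100a14 and S100a8 were at or near the limit of detection. S100a16, a broadly expressed member linked to fat cells and epithelia, was at 0.38, 0.29, 0.54 and 0.13 CPM in the knockout and at 0.28, 0.32, 0.41 and 0.41 CPM in the wild type. The groups overlapped. Its log2 fold change of -0.10 ± 0.46 became 0.18 without knockout replicate 4 and -0.41 without knockout replicate 3. S100a14, an epithelial member, had counts only in knockout replicate 1 (11) and wild-type replicate 3 (15) and was too low to test. S100a8, a subunit of calprotectin made by neutrophils and monocytes, had 0 counts in all 8 libraries, which allows a level of at most 0.04 to 0.0515 CPM per library (3 counts, counting error only).

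**Figure D2:**
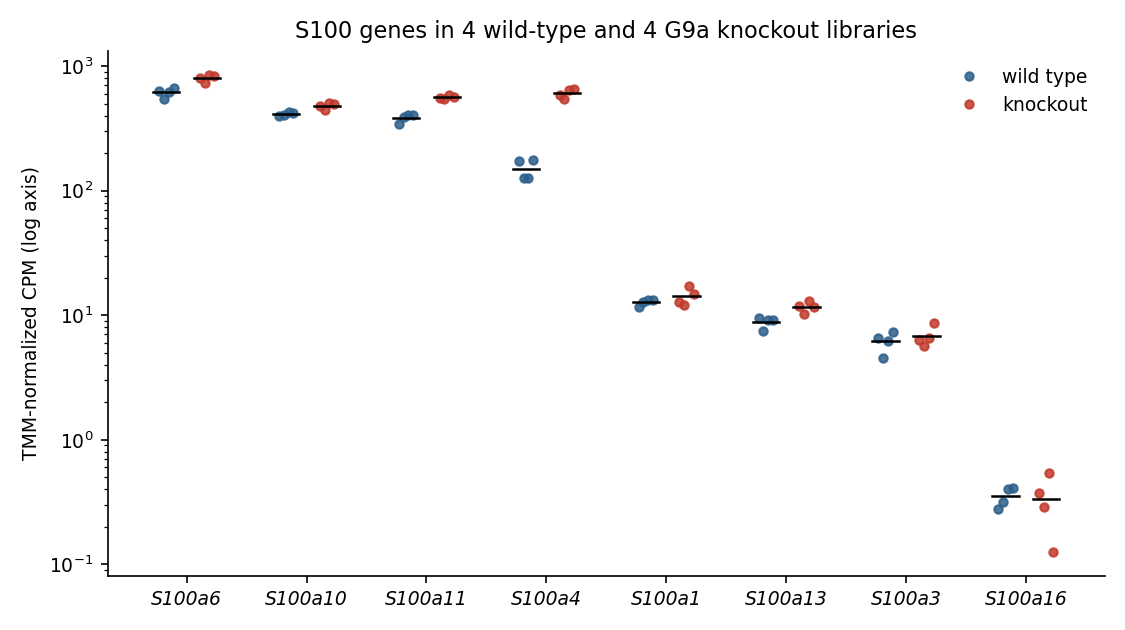
TMM-normalized CPM (log axis) of the 8 S100 genes that could be tested, in wild-type (blue) and G9a knockout (red) libraries; points are libraries and lines group means. S100a4 lies at 125.9 to 175.6 CPM in the wild type and at 543.9 to 655.4 CPM in the knockout, the widest gap between groups drawn. S100a8 and S100a14, with 0 counts in most or all libraries, are not drawn.

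Of the 10 members, 8 passed the filter on low counts. As a description of the values that selected them, 5 (S100a4, S100a6, S100a10, S100a11 and S100a13) were among the genes called higher in the knockout in the fit over all genes (edgeR, adjusted p under 0.05), none was among those called lower, and the same 5 had no overlap between the groups. Over all 15840 genes tested, 23.6% were called higher and 23.6% lower; all knockout libraries were above all wild-type libraries in 22.5% and below them in 21.4%. With library totals in place of TMM, 4543 genes were called higher and 2742 lower, against 3742 and 3734. Since this comparison selected the members, nothing is read from their count or from the values that follow. Their median log2 fold change was 0.31 over the 8, beside 0.00 over all genes tested. In all, the members took 0.237% to 0.267% of the counts of a knockout library and 0.143% to 0.164% of a wild-type library. Without S100a4, their summed level was 5952 to 6252 TPM in the knockout and 4250 to 4664 TPM in the wild type.

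Each abundant member was read mostly through 1 transcript. S100a4-201 made up 98.5% to 99.8% of the gene's TPM in the knockout and 95.8% to 99.8% in the wild type. S100a10-201 made up at least 97.4% in all libraries, and S100a11 and S100a13 have 1 listed transcript each. S100a6-201 held 84.7% to 89.1% in the knockout and 77.7% to 88.8% in the wild type, the rest being mostly S100a6-203. S100a3 was divided unevenly: S100a3-204, which starts upstream, took 0% to 42.4% in knockout and 0% to 64.0% in wild-type libraries, so that its transcripts were not repeatable within a group.

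The other genes of the family were low or had no counts. Of 16 further genes listed, which were S100 genes, S100-fused genes and S100pbp, 15 were in the table, 6 had 0 counts in all libraries and 3 could be tested. S100a9, the partner of S100a8, was among the 6. S100a5, which lies between S100a4 and S100a6, had 12 to 42 counts in the knockout and 0 to 15 in the wild type (log2 fold change 1.32 ± 0.72; edgeR, adjusted p = 0.156). S100a7a, a relative of psoriasin, had 19 to 53 and 18 to 21 counts (log2 fold change 0.77 ± 0.40; adjusted p = 0.134). S100pbp on chromosome 4, which encodes an S100P-binding protein and is itself no S100 gene, was expressed, at 49.1 ± 1.85 and 49.2 ± 2.76 CPM (adjusted p = 0.973). S100a2, S100b, S100g and S100z had 1, 29, 2 and 3 counts over all libraries.

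Tested genes within 1 Mb of the first S100 group were read without S100 genes, so S100a5 and S100a7a, given above, are not among them. None was higher in the knockout by as much as S100a4. Gm42674, which overlaps S100a4, had the lowest log2 fold change, -4.68. The nearest tested gene before S100a1, the mRNA export factor Chtop (90498956 to 90509498), was at 238.0 and 240.2 CPM in knockout and wild type (log2 fold change -0.01 ± 0.04; edgeR, adjusted p = 0.833). Of these 34 genes, 8 rose and 6 fell, with a median log2 fold change of -0.00 and none above 0.85. Within 5 Mb of S100a4 the median of 195 tested genes was 0.01, and within 5 Mb of the whole span that of 270 genes was 0.06.

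Between the 2 groups of S100 genes the picture differed. Of 15 tested genes that lie between S100 genes and are none themselves, 10 rose and 3 fell (median log2 fold change 1.87). Apart from Gm42674 they lie in the epidermal differentiation complex, the nearest, Lor, 1476 kb from S100a4, and all had group means under 8 CPM. Sprr2a1 and Sprr2a2, genes of small proline-rich proteins of the cornified envelope, rose by 3.88 ± 0.27 and 3.71 ± 0.33 on the log2 scale from 0.18 and 0.21 CPM. They are near-identical copies whose reads may be shared. Gm37087 and Gm37752, annotated genes of unknown class among the Sprr2 genes, rose by 2.57 ± 0.17 and 2.39 ± 0.16; Gm37087 lies inside the span of Sprr2a2 on the other strand, and their reads may be shared. Ivl (involucrin) went from 0.17 ± 0.09 to 1.41 ± 0.07 CPM, while Lor (loricrin) fell from 4.62 ± 1.26 to 2.48 ± 0.26 CPM. Over the whole window of 1 Mb around the span, again without S100 genes, 20 of 56 tested genes rose and 9 fell. With library totals in place of TMM these counts were 21 and 5.

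**Figure D3:**
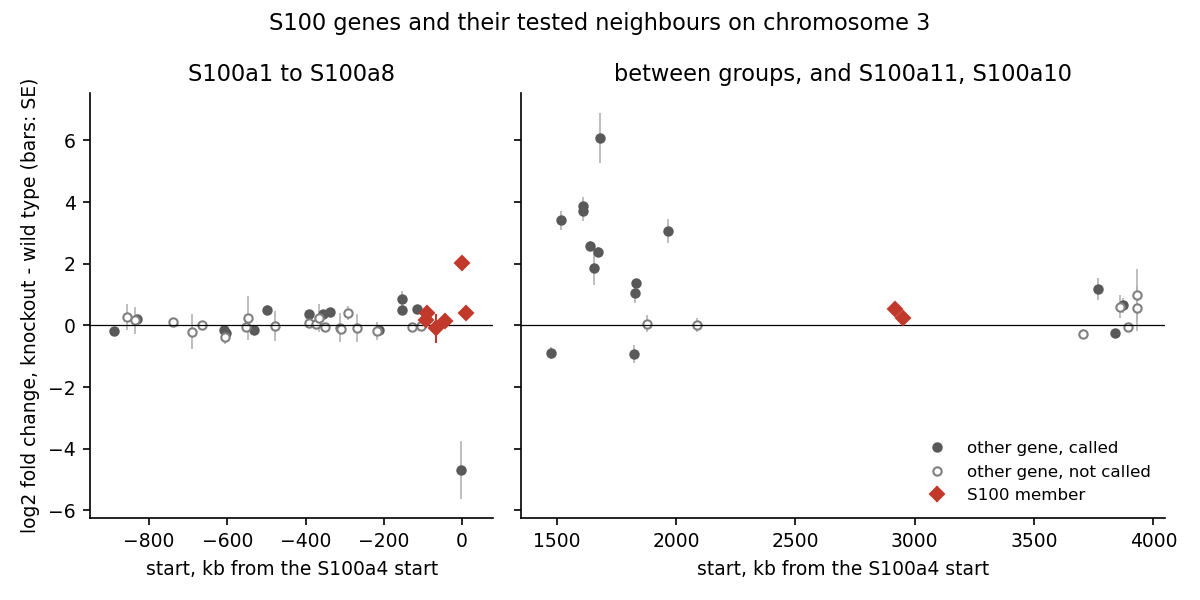
Log2 fold change (knockout minus wild type, bars 1 SE) by the distance of a gene's start from that of S100a4 in kb. Red diamonds are the tested S100 members, and gray points are tested genes within 1 Mb of the S100 span that are not S100 genes. S100a5 and S100a7a, tested but not members, are not drawn. S100a4 (2.01) stands above its neighbors on the left, while the genes of the epidermal differentiation complex between the 2 groups of S100 genes lie mostly above 0 (median 1.87 over the 15 genes between S100 genes).

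Annexins, membrane-binding partners of S100 proteins, rose in 4 of 10 tested cases and 1 fell (median log2 fold change 0.17). With library totals in place of TMM, 8 rose. Anxa8 was the one that fell (log2 fold change -0.66 ± 0.17). Anxa6 rose from 30.6 ± 1.82 to 75.6 ± 4.29 CPM and Anxa4 from 37.6 ± 1.18 to 53.3 ± 1.68 CPM. Anxa11, which binds S100A6, rose by 0.39 ± 0.07 on the log2 scale, and Anxa3 by 0.64 ± 0.04, where the tested genes within 5 Mb had a median of 0.36. The partners of S100A10 and S100A11, named here with their values known, were also read. Anxa2 was at 785.0 ± 29.6 and 746.9 ± 13.7 CPM (log2 fold change 0.07 ± 0.04; edgeR, adjusted p = 0.153). Anxa1 was at 481.0 ± 23.2 and 457.5 ± 28.8 CPM (adjusted p = 0.289). The ratio of S100a10 to Anxa2 in TPM was 1.32 ± 0.02 in the knockout and 1.24 ± 0.09 in the wild type (SD, n = 4), with overlapping ranges.

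Other intracellular partners moved both ways, 4 of 21 higher and 5 lower (median -0.07; 6 and 5 with library totals). Over all genes tested 23.6% were called higher and 23.6% lower, the shares to set beside the counts of this and every other list. Myh9, the myosin heavy chain that S100A4 binds, fell from 994.1 ± 77.0 to 645.2 ± 42.2 CPM (log2 fold change -0.62 ± 0.06; edgeR, adjusted p = 1.94e-06). Fgf1, a cargo of S100A13, rose from 5.79 ± 0.49 to 12.9 ± 0.72 CPM (adjusted p = 3.51e-07). Kcnk3, a potassium channel that S100A10 carries to the cell surface, rose from 0.87 ± 0.27 to 9.08 ± 0.47 CPM, and the tested genes within 5 Mb of it had a median log2 fold change of 0.50. Dysf, the membrane repair protein dysferlin, rose by 0.64 ± 0.06. Cacybp, the partner of S100A6, fell by 0.25 ± 0.06, and Atp2a2 was at 735.4 ± 25.1 and 715.2 ± 12.6 CPM (adjusted p = 0.425); both were named with their values known.

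Of 8 tested receptors for released S100 proteins, 2 rose and 1 fell (median 0.09). Alcam, an adhesion molecule, rose from 20.5 ± 2.23 to 81.5 ± 4.65 CPM, and Bsg (basigin) from 395.5 ± 10.9 to 473.9 ± 17.7 CPM. Cd14 fell from 12.1 ± 1.13 to 8.39 ± 1.26 CPM. The main receptors Ager and Tlr4, also named with their values known, were at 0.91 ± 0.28 against 1.02 ± 0.34 and at 37.8 ± 3.40 against 37.3 ± 2.56 CPM (edgeR, adjusted p = 0.703 and 0.843).

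The plasminogen system, which the annexin A2-S100A10 complex serves, rose in 7 of 9 tested cases and 1 fell (median 0.63). The tissue activator Plat went from 49.7 ± 1.67 to 89.0 ± 2.30 CPM, and the inhibitors Serpine2 from 52.1 ± 2.29 to 91.6 ± 1.27 and Serpinb2 from 6.30 ± 1.21 to 26.1 ± 2.44 CPM. The tested genes within 5 Mb of Plat and Serpinb2 had medians of 0.29 and 0.31, below the genes' own log2 fold changes of 0.84 and 2.05. Mmp2, a matrix metalloproteinase and the member that fell, had the largest change of the list, from 2.13 ± 0.31 to 0.17 ± 0.08 CPM (log2 fold change -3.59 ± 0.33; edgeR, adjusted p = 1.14e-06). Plg, the gene of plasminogen itself, had 0 counts in all libraries.

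Other EF-hand proteins rose in 15 of 31 tested cases and 2 fell (median 0.15). The myosin light chain gene Myl12b rose from 78.1 ± 3.84 to 157.6 ± 8.50 CPM and Sparc, a secreted matrix protein, from 461.9 ± 35.5 to 826.8 ± 26.8 CPM. Chp1 fell (log2 fold change -0.78 ± 0.05), and the tested genes within 5 Mb of it had a median of -0.61. Transcription factors known to act on S100 genes fell in 8 of 17 cases and rose in 3 (median -0.13). Cebpb fell from 123.3 ± 6.53 to 56.5 ± 7.36 CPM, Nfe2l2 (NRF2) from 188.4 ± 7.28 to 113.0 ± 2.25 and Lef1, a partner of beta-catenin, from 11.2 ± 0.94 to 5.31 ± 0.32 CPM, while Stat3 rose from 103.3 ± 5.60 to 147.7 ± 5.86 CPM. Cebpb and Nfe2l2 lie on chromosome 2, where the tested genes within 5 Mb of each had medians of -0.49 and -0.45.

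**Figure D4:**
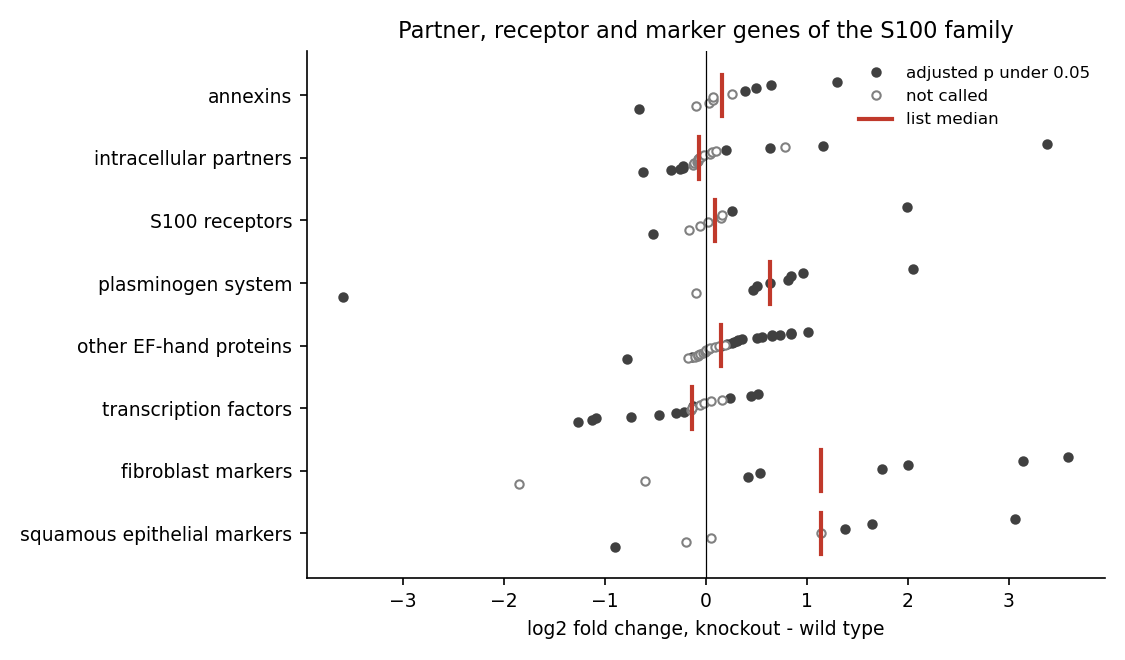
Log2 fold change (knockout minus wild type) of each tested gene in 8 lists; filled points passed an adjusted p under 0.05 (edgeR), open points did not, and red lines are list medians. The plasminogen list has a median of 0.63 and the transcription factor list one of -0.13.

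Because S100a4 is known as a marker of fibroblasts and S100a8 of myeloid cells, markers of other cells were read beside them. The labels name only Hepa 1-6 cells for all libraries, and whether other cells were present was not tested. In bulk RNA, fewer cells of a type and less RNA per cell cannot be told apart. Fibroblast markers rose in 6 of 8 tested cases and none fell (edgeR; median 1.14; 1 fell with limma-voom). Their summed level was 598.3 to 637.8 CPM of the library total in the knockout and 214.5 to 231.3 in the wild type. Col3a1 and Pdpn made up most of this sum in both groups. Col3a1, the most read marker in the knockout, rose from 106.8 ± 4.83 to 428.6 ± 12.9 CPM. Col1a2 rose from 0.44 ± 0.26 to 5.35 ± 0.59, Des from 2.37 ± 0.14 to 7.93 ± 1.03 and Pdpn from 116.0 ± 3.23 to 154.7 ± 6.86 CPM. The tested markers that were not called had lower means in the knockout: Pdgfra was at 1.13 ± 0.28 CPM there and 1.71 ± 0.41 CPM in the wild type (-0.60 on the log2 scale; adjusted p = 0.0687) and Pdgfrb had 13 against 48 counts (-1.85; adjusted p = 0.178). Lum had 0 counts in all libraries, and Dcn, Thy1 and Fap had 5, 9 and 19 counts over the knockout libraries and 0 in the wild type. The part of these markers in the S100a4 difference was not tested.

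Myeloid markers rose in 3 of 7 tested cases and 1 fell (median 0.31). Their summed level was 20.1 to 24.2 CPM of the library total in the knockout and 19.9 to 22.8 in the wild type, and 7 of 20 had 0 counts in all libraries, among them Itgam, Mpo and Spi1. Ptprc rose from 0.44 ± 0.05 to 1.08 ± 0.08 CPM and Ly6g from 1.88 ± 0.32 to 3.46 ± 0.45 CPM. Ltf rose from 0 to 79 counts over 4 libraries. Cd14, given above as a receptor, was the marker that fell (log2 fold change -0.52 ± 0.12), and Csf1r was at 0.72 ± 0.41 against 1.38 ± 0.79 CPM (-0.94; adjusted p = 0.125). Squamous epithelial markers, which share the chromosome 3 region with the S100 genes in part, rose in 3 of 7 cases and 1 fell (median 1.14). This median is the value of Krt14, which was not called (SE 1.19; edgeR, adjusted p = 0.47). Krt14 had 42 counts over the knockout libraries and 17 over the wild-type libraries. Sfn rose from 5.20 ± 0.85 to 16.2 ± 1.59 and Sprr1b from 2.998 ± 0.49 to 7.83 ± 0.52 CPM, and Lor, given above, fell. Krt5, Krt1, Sprr2d and Trp63 had 0 counts in all libraries.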

How the data were processed

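Poly-A RNA of 4 G9a knockout and 4 wild-type libraries of Hepa 1-6 was sequenced. Per the submitters' processing notes, FastQC, Trimmomatic, HISAT2 and the assembly GRCm38.p6 were used, and the counting tool, its strand setting and the annotation are not stated in the sources used here. The authors deposited whole-number counts per transcript, not normalized. Of 115220 transcripts, 114332 (99.23%) matched GENCODE mouse release 21 and were summed per gene; unmatched rows, 0.148% to 0.17% of the counts, were left out. TPM used the exon lengths of each transcript.

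The groups were compared with edgeR 4.0.16 in R 4.3.3 (quasi-likelihood F test, two-sided; TMM; filterByExpr; genotype as the only term), with Benjamini-Hochberg adjustment over all 15840 genes tested. "Rose" and "fell" mean an adjusted p under 0.05. SE is the size of the log2 fold change over the square root of F. The members and lists were chosen with earlier results of these data known. Beside the members and further S100 genes, up to 4 called genes of each list with the lowest p, the chromosome 3 neighbors with the lowest p or nearest to a member, and markers at 0 were named, not all of which are reported here; others are marked or were named after their values were seen, including Ivl, Lor, Dcn, Thy1, Fap, Pdgfra, Pdgfrb, Csf1r, Anxa8 and Mmp2. DESeq2 1.42.0 and limma-voom (limma 3.58.1), other scalings and filters, transcript choices and each library left out were tried. The code was tested on simulated data. No library was a copy of another: pairs within a group gave chi-square values of at least 10.94 times their degrees of freedom. Figures were drawn with Python 3.11.15.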

Additional observations from a re-analysis of the deposited data

Results flagged for a closer look

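Wild-type replicate 2 stood apart for S100a13. It was at 7.52 CPM, while the other wild-type libraries were between 9.16 and 9.45 CPM, a gap that passed Dixon's critical value for 4 samples. It was the only such library among 107 groups of 4 examined, the members and the other named genes that could be tested, where chance would give about 5%. Without it the log2 fold change of S100a13 was 0.34 in place of 0.41.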

How the results depend on the processing

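S100a4, S100a6, S100a10, S100a11 and S100a13 kept a positive log2 fold change in all 19 alternatives run for each, and S100a4 in 1 more added after seeing the data; that of S100a4 lay between 1.93 and 2.10. The count of members called stayed at 5 higher and 0 lower, except that adding Gm42674 to S100a3 gave 1 lower. Of 428 recomputed counts of genes, 406 stayed within 1.5 times. With library totals in place of TMM, 8 annexins were higher, 1 other EF-hand gene was lower (also 1 with upper quartile factors) and 5 chromosome 3 neighbors were lower. With genes of at least 5 CPM, fewer genes were tested: the counts of lower annexins, plasminogen genes and squamous markers were 0, 1 EF-hand gene was lower, 1 myeloid and 3 fibroblast markers were higher, and 9 chromosome 3 neighbors were higher and 3 lower. With limma-voom 1 fibroblast marker was lower. Leaving out 1 library gave 1 to 4 lower EF-hand genes (4 without wild-type replicate 1), 0 to 1 lower fibroblast markers (1 without knockout replicate 3 or wild-type replicate 4) and 5 to 8 lower chromosome 3 neighbors (5 without knockout replicate 3). The causes were not tested. Genes near 0 changed sign: Chtop was at 0.0665 with library totals, 0.045 with upper quartile factors, 0.027 with genes of at least 5 CPM and between -0.037 and 0.014 with 1 library left out; S100pbp was at 0.00426 with DESeq2, 0.077 with library totals, 0.055 with upper quartile factors, 0.00235 with all genes of at least 1 count, 0.037 with genes of at least 5 CPM and between -0.039 and 0.025 with 1 library left out; Gm4202 was at -0.00911 with the replicate block and between -0.12 and 0.15 with 1 library left out.

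Same-numbered libraries did not deviate together (correlations of -0.02, -0.00, 0.08 and -0.02), so the numbers were not taken as pairs; with a replicate block 3643 genes were higher and 3612 lower, and the members' counts were 5 and 0. At these depths S100a8 and S100a14 were too low to test, and S100a16 rested on 9 to 32 counts per library.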
